A study of Mus musculus with 10 samples.

Results

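Messenger RNA levels were compared between HOXB4const cells kept for 1 h without 4-hydroxytamoxifen (TMX) and HOXB4const cells kept for 1 h with 10 nM TMX. These are 4 of the 10 arrays of the series, 2 in each group, numbered as biological replicates 1 and 2. The comparison was made within each replicate number, without TMX minus with TMX, and the values described are those of the 9014 of 45037 probe sets whose mean over all 10 arrays was at least 7 on the log2 scale. With 1 probe set taken for each gene, the brightest, they stand for 5886 of 18193 genes.

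HOXB4const is unmodified HOXB4, which stays active whether or not TMX is present. Mouse Lin-Sca1+ haematopoietic progenitors had been transduced with a retroviral vector that also carries a green fluorescent protein. All groups were made from transduced cells, and there is no group without a HOXB4 vector. All cells, those of the groups without TMX included, had been expanded for 14 days with SCF, FLT3 ligand, IL-11, IL-3 and 10 nM TMX in serum-free medium, sorted as GFP+, lineage-negative, Sca1+ and c-kit+ (LSK) cells, and cultured for 12 h more with TMX before the split. The comparison experiment used cells with HOXB4-ER, a fusion to a hormone-binding domain that needs TMX to act, kept for 1 h with TMX or without it (2 arrays each), and shares no array with the HOXB4const comparison. A further group of HOXB4-ER cells, kept for 4 h without TMX (2 arrays), entered the mean over all 10 arrays and the shared fit. Neither the age and strain of the animals nor whether a replicate number stands for separate animals is stated in the labels, so p-values measure the spread between these arrays only.

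HOXB4 belongs to the homeobox transcription factors, and its overexpression drives the growth of blood stem and progenitor cells in culture. TMX is a ligand of oestrogen receptors, which regulate genes by binding palindromic response elements, and it is used to hold proteins fused to an altered receptor domain in the nucleus. In cells whose transgene does not respond to TMX, the comparison addresses what the drug and the handling do by themselves to the transcriptome.

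No gene passed the test between HOXB4const cells without and with TMX. With limma and Benjamini-Hochberg adjustment over the 45037 probe sets, 0 had an adjusted p under 0.05 (0% of those tested), 2309 had an unadjusted p under 0.05, and the smallest adjusted p was 0.803. Among the 9014 brighter probe sets, 4 had an unadjusted p under 0.05 (0.0444%) and the smallest adjusted p was 0.913. Fitted over these 9014 alone, where the spread is estimated without the dim probe sets, 165 had an unadjusted p under 0.05, 0 passed, and the smallest adjusted p was 0.999. The precision limits this: for the brighter probe sets the median 95% confidence interval of the difference, unadjusted and from the fit over all probe sets, reached 0.958 log2 units to either side, and single differences larger than that did not pass the adjusted test either.

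The 4 probe sets with an unadjusted p under 0.05 measure Rpl41, Hes6, Smpd4 and Tmem192, named here after their values were seen. One probe set of Rpl41, a ribosomal protein gene, read 11.92 and 12.09 with TMX and 13.22 and 13.50 without (log2, replicates 1 and 2), a difference of 1.36 ± 0.42 (moderated standard error, limma adjusted p = 0.913). Both arrays without TMX lay above both arrays with it, but the brighter Rpl41 probe set gave a difference of 0.18. Hes6, a member of the Hes family of basic helix-loop-helix transcription regulators, read 8.41 and 8.21 with TMX and 7.48 and 7.16 without, a difference of −0.99 ± 0.37 (adjusted p = 0.945). Smpd4, which encodes a neutral sphingomyelinase, read 7.61 and 7.44 with TMX and 6.60 and 6.74 without, a difference of −0.86 ± 0.34 (adjusted p = 0.964). For Hes6 and Smpd4 the groups did not overlap and no second probe set had a mean of 7 or more. The Hes6 probe set carries an x suffix, so its probes can bind transcripts of other genes. Tmem192, a lysosomal membrane protein gene, read 8.11 and 7.25 with TMX and 7.23 and 6.40 without, a difference of −0.87 ± 0.35 (adjusted p = 0.973). Its groups stood just apart, the 2 replicate numbers differed by about as much as the treatments, and its other probe set gave −0.18.

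Counting by size alone, 2 of the 9014 probe sets were at least 2-fold higher without TMX in both pairs (0.0222%) and 0 were at least 2-fold lower in both (0%). They are the Rpl41 probe set above and 1 of 5 bright probe sets of Cnn3, the gene of the actin-binding protein calponin 3. The Cnn3 probe set read 6.42 and 7.09 with TMX and 7.48 and 9.44 without (difference 1.70 ± 0.93, adjusted p = 1), while its other probe sets gave −0.17, 0.07, 0.03 and −0.07. Both probe sets carry the suffix by which the manufacturer marks probes that can bind transcripts of other genes, and without such probe sets the count was 0. In HOXB4-ER cells, 1 probe set was at least 2-fold higher in both pairs and 5 were at least 2-fold lower.

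The genes named next are the 12 higher and 12 lower genes whose arrays did not overlap between the groups and whose smaller pair difference was largest. They were chosen by these values, so their differences are a description. Across the 5886 genes, 213 lay higher without TMX on both arrays (3.62%) and 654 lay lower (11.1%), so that 24.6% of the genes without overlap were on the higher side. That split follows the scaling: the higher side held 41.9% after quantile normalization, 47.6% with each array centred on its brighter probe sets and 0.306% with each array centred on its overall median. In HOXB4-ER cells 696 genes lay higher and 800 lower by the same count. The 12th and 13th genes were close on both sides, with smaller pair differences of 0.41 and 0.41 for Cep250 and U2af2 on the higher side, and of 0.62 and 0.62 for Rc3h2 and Sec14l1 on the lower side.

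**Figure D1:**
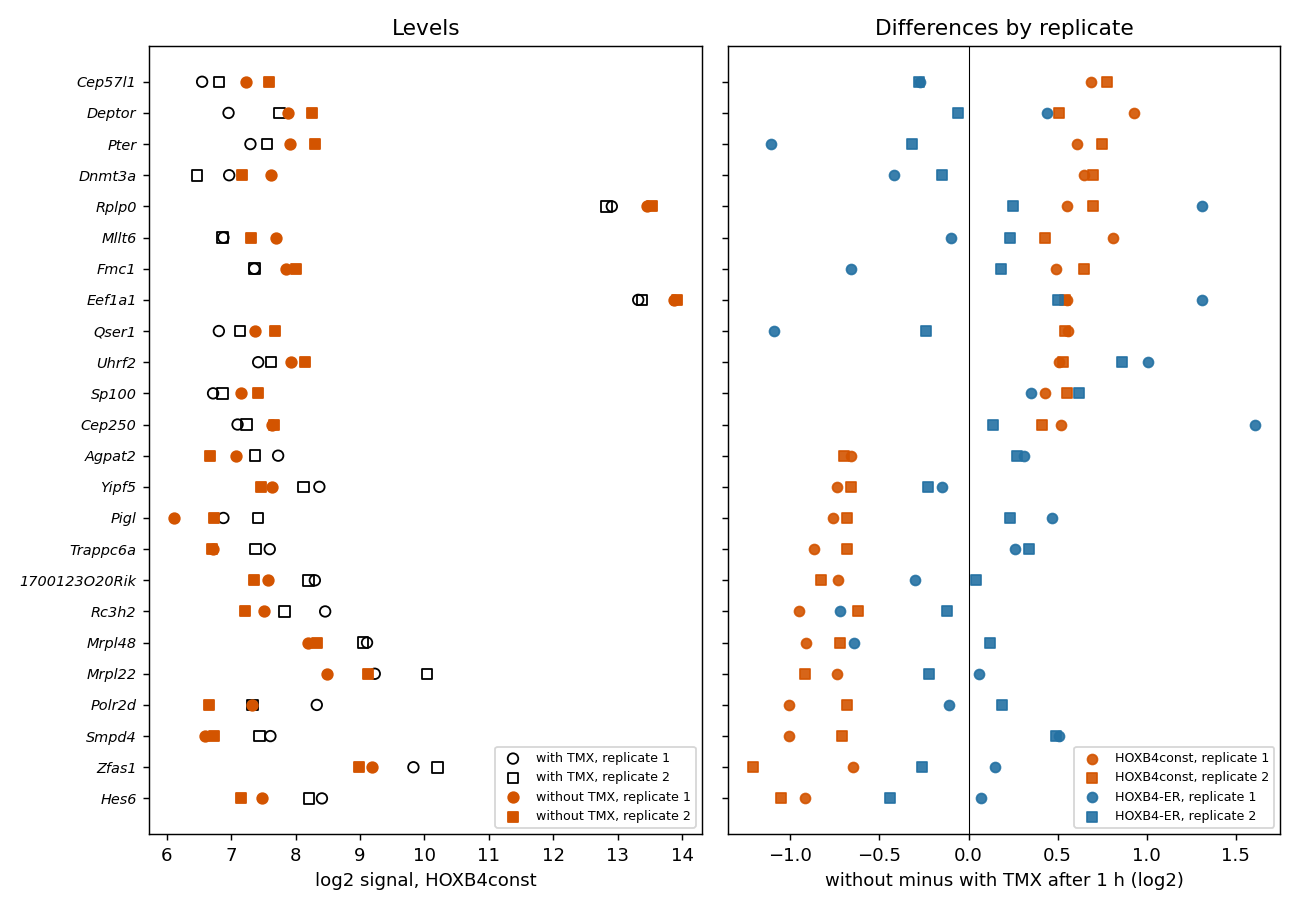
Left, log2 signal of the 24 named genes (rows) on the 4 HOXB4const arrays, with TMX (open) and without (filled), replicate 1 as circles and replicate 2 as squares. Right, without minus with TMX (log2) in each replicate pair of HOXB4const (orange) and HOXB4-ER (blue) cells. The orange points of a gene lie on 1 side of 0 by the way the genes were chosen, while the blue points lie on both sides.

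On the higher side were 3 genes of chromatin regulation. Dnmt3a, a de novo DNA methyltransferase that acts in blood stem cell differentiation, read 6.97 and 6.47 with TMX and 7.62 and 7.17 without (0.68 ± 0.35). Uhrf2, a ubiquitin ligase that binds modified cytosine in DNA, read 7.42 and 7.62 with TMX and 7.93 and 8.15 without (0.52 ± 0.36). Mllt6, a fusion partner of the leukaemia gene Kmt2a, read 6.88 and 6.87 with TMX and 7.69 and 7.31 without (0.62 ± 0.49). All 3 read higher on both arrays without TMX than on either array with it, and their limma adjusted p was 1.

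Translation genes were the brightest of the 24. Rplp0, a protein of the ribosomal stalk, read 12.91 and 12.83 with TMX and 13.46 and 13.53 without (0.63 ± 0.49). Eef1a1, the elongation factor that brings transfer RNAs to the ribosome, read 13.32 and 13.38 with TMX and 13.87 and 13.92 without (0.55 ± 0.49). The SD between replicates was at most 0.06 in each group (n = 2), and both were also higher without TMX in the 2 HOXB4-ER pairs, by 1.31 and 0.25 for Rplp0 and by 1.31 and 0.50 for Eef1a1. After quantile normalization the differences were 0.26 for Rplp0 and 0.12 for Eef1a1. Both genes have processed copies in the genome, and the probe sets may not tell these apart.

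Of the other 7 higher genes, Cep57l1 and Cep250 encode centrosome proteins. Cep57l1 read 6.55 and 6.81 with TMX and 7.23 and 7.59 without (0.73 ± 0.33), the largest mean difference of the 12. Deptor, an inhibitor of the mTOR kinase, read 6.96 and 7.75 with TMX and 7.88 and 8.26 without (0.72 ± 0.42), and its second bright probe set gave −0.27. Pter (0.68 ± 0.45), Fmc1, an assembly factor of the mitochondrial ATP synthase (0.57 ± 0.50), Qser1 (0.55 ± 0.46), Sp100, a nuclear body protein (0.49 ± 0.54), and Cep250 (0.47 ± 0.50) complete the list. All 12 had an adjusted p of 1, and 0 of the 12 had an unadjusted p under 0.05. In the fit over the brighter probe sets alone, 15 of the 24 named genes had one, namely all the lower genes and Cep57l1 (0.0052), Dnmt3a (0.0114) and Deptor (0.0361), with a limma adjusted p of 0.999 throughout, and these genes had been chosen for their differences. Without 1 array the differences of Sp100 ran from 0.17 to 0.82, of Fmc1 from 0.21 to 0.93, of Mllt6 from 0.27 to 0.97, of Pter from 0.34 to 1.02 and of Cep250 from 0.19 to 0.74.

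The lower genes reached larger differences, from −0.68 to −0.99. Mitochondrial translation was represented by 2 genes of the large mitochondrial ribosomal subunit. Mrpl22 read 9.23 and 10.04 with TMX and 8.49 and 9.12 without (−0.83 ± 0.34) and the replicate 2 array without TMX stood only just below the replicate 1 array with it. Mrpl48 read 9.11 and 9.05 with TMX and 8.20 and 8.34 without (−0.81 ± 0.37), although its second bright probe set gave 0.18.

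RNA production and decay were represented by Polr2d, a subunit of RNA polymerase II, Rc3h2, which encodes the mRNA decay factor Roquin-2, and Zfas1, a noncoding RNA that hosts small nucleolar RNAs. Zfas1 read 9.83 and 10.20 with TMX and 9.18 and 8.99 without (−0.93 ± 0.45). Polr2d read 8.33 and 7.33 with TMX and 7.32 and 6.65 without (−0.85 ± 0.38). Rc3h2 read 8.46 and 7.83 with TMX and 7.51 and 7.21 without (−0.78 ± 0.39). For Polr2d the higher array without TMX and the lower array with TMX were almost equal.

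Membrane lipid and trafficking genes made up most of the rest. Besides Smpd4 these were Agpat2, an enzyme of phosphatidic acid synthesis (−0.68 ± 0.37), Pigl, which acts in the synthesis of the glycolipid anchor of surface proteins (−0.72 ± 0.34), Trappc6a, a subunit of a vesicle tethering complex (−0.77 ± 0.34), and Yipf5, a Golgi membrane protein (−0.70 ± 0.35). Trappc6a read 7.60 and 7.38 with TMX and 6.72 and 6.70 without. Agpat2 read 7.73 and 7.37 with TMX and 7.07 and 6.67 without. The second bright probe set of Yipf5 gave −0.01. With 1700123O20Rik (−0.78 ± 0.37) and Hes6 these are the 12 lower genes, whose adjusted p lay between 0.945 and 1.

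The mean difference in HOXB4-ER cells had the same sign for 7 of the 12 higher and 7 of the 12 lower genes. Both HOXB4-ER pairs went the same way as HOXB4const for 5 of the higher genes (Rplp0, Eef1a1, Uhrf2, Sp100 and Cep250) and 2 of the lower genes (Yipf5 and Rc3h2). Both went the opposite way for 4 higher genes (Cep57l1, Dnmt3a, Pter and Qser1) and 4 lower genes (Smpd4, Pigl, Trappc6a and Agpat2). Tested directly, the difference between the constructs passed limma's adjusted threshold for 0 of 45037 probe sets (0%), while 1990 had an unadjusted p under 0.05 and the lowest adjusted value was 0.839. Over the brighter probe sets the mean difference of HOXB4const and that of HOXB4-ER had a Pearson correlation of −0.02, a description across 9014 probe sets, which are not independent replicates. The single pairs were related, with opposite signs. HOXB4const pair 1 had correlations of 0.41 and 0.15 with HOXB4-ER pairs 1 and 2, and HOXB4const pair 2 had −0.38 and −0.16.

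Promoter windows of the named genes were searched for the DNA word to which oestrogen receptors bind, because TMX is a ligand of these receptors. The windows, from RefSeq (GRCm38.p6), run from 250 bases before to 50 after each transcription start and were found for 21 of the 24 genes (29 windows). The full element GGTCANNNTGACC, which is its own reverse complement, was in 0 of the 29 windows and in 23 of all 32851 (0.07%). Its half-site AGGTCA, or TGACCT when read on the other strand, was in 4 of the 29 windows (13.8%) and in 16.3% of all windows. The 4 genes are Hes6, Mrpl22, Dnmt3a and Uhrf2, and the stretches around the 5 half-sites (capitals) are shown 5′ to 3′ on the strand of the gene because these are all the matches among the genes that the comparison names.
Hes6 (chr1:91413403-91413468, minus strand): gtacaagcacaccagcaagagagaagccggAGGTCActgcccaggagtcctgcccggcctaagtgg
Mrpl22, first site (chr11:58171451-58171516, plus strand): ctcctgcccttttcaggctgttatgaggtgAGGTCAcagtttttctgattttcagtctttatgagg
Mrpl22, second site (chr11:58171484-58171549, plus strand): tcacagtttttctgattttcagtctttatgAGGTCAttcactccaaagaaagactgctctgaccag
Dnmt3a (chr12:3891638-3891703, plus strand): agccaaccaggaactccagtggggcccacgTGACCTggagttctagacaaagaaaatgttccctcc
Uhrf2 (chr19:30030435-30030500, plus strand): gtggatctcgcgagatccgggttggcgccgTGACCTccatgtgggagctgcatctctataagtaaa
The half-sites begin between 216 bases (Hes6) and 48 bases (Uhrf2) before the start site. Hes6 and Mrpl22 read lower without TMX and Dnmt3a and Uhrf2 higher. A match to these letters describes the window and is not evidence of binding.

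The replicate pairs did not resemble each other. Over the 9014 brighter probe sets, the difference in pair 1 and the difference in pair 2 had a Pearson correlation of −0.53 (Spearman −0.44), whereas the 2 HOXB4-ER pairs had 0.22. Single pair differences had SDs of 0.48 and 0.53 and their mean had an SD of 0.24. Differences of at least 2-fold in opposite directions were found for 216 probe sets, 207 of them lower without TMX in pair 1 and higher in pair 2, against 7 in HOXB4-ER cells.

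**Figure D2:**
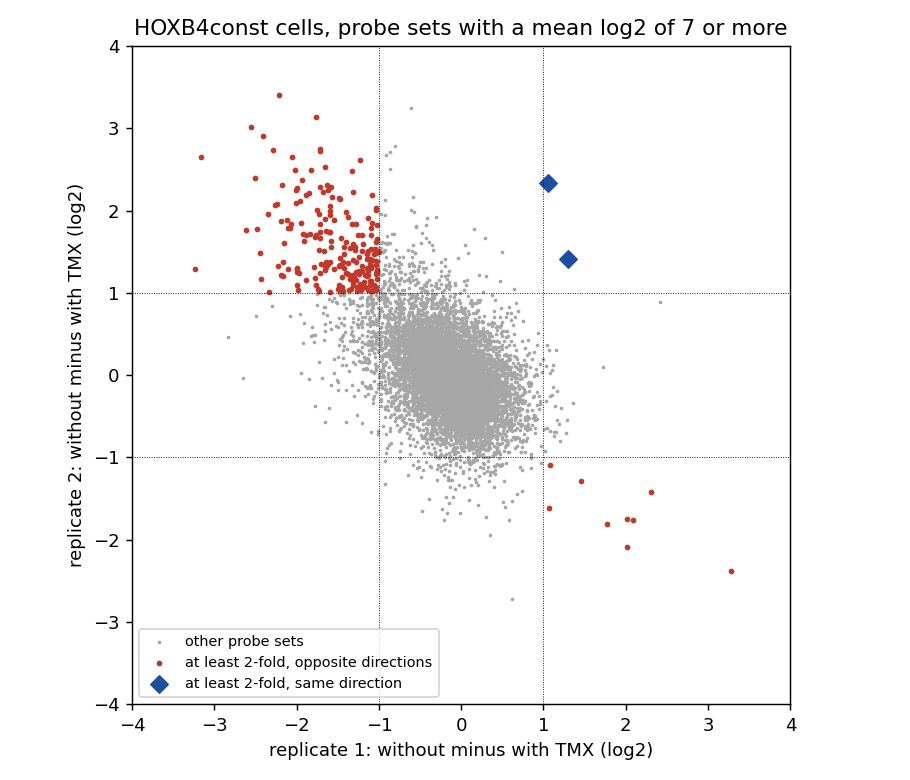
Each point is 1 of 9014 probe sets. The x axis is without minus with TMX in replicate 1 and the y axis the same in replicate 2 (log2, HOXB4const cells), with dotted lines at 2-fold. The cloud slopes downwards, 216 probe sets (red) pass 2-fold in opposite directions and 2 (blue diamonds) pass it in the same direction.

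By the way they were selected, the 207 probe sets are low on the replicate 1 array without TMX and the replicate 2 array with it, relative to the partner of each. Their median signal was 8.83 on the replicate 1 array with TMX and 7.41 on the one without, and 7.88 on the replicate 2 array with TMX and 9.47 on the one without. On the 6 HOXB4-ER arrays, which entered the selection only through the mean over all 10, it lay between 8.15 and 9.02. That is above the 2 low HOXB4const arrays and below the highest, the replicate 2 array without TMX. For 131 of the 207 (63.3%) the 2 low arrays were the lowest of all 10. The selection favours this count, which was not made over all 9014 brighter probe sets. The same 2 arrays had the fewest values below 0, 0.0155% and 0.377% of their probe sets, against 1.39% to 8.17% on the other 8. Each group and each pair holds 1 of them. With a term for them in the fit, 0 probe sets passed and 3150 had an unadjusted p under 0.05, and the gene lists are given below with and without them.

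**Figure D3:**
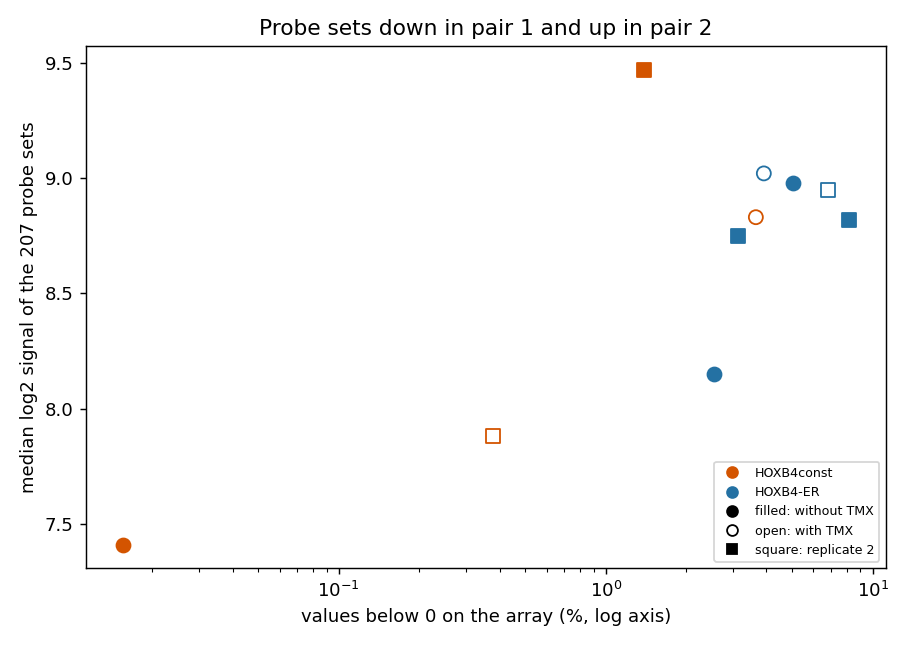
Median log2 signal of the 207 probe sets (y axis) against the percentage of values below 0 (x axis, log scale) on each of the 10 arrays, HOXB4const in orange and HOXB4-ER in blue, filled without TMX and open with it, squares for replicate 2. The HOXB4const arrays without TMX, replicate 1, and with TMX, replicate 2, sit at the lower left with medians of 7.41 and 7.88.

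Single genes of this set, picked after their values were seen, were matched by some of their other probe sets and not by others. For Ywhaz, a 14-3-3 adaptor protein gene, 1 probe set read 7.83 and 5.74 with TMX and 5.61 and 9.14 without, pair differences of −2.22 and 3.40. Another Ywhaz probe set read 9.64 and 9.07 with TMX and 9.79 and 8.90 without, pair differences of 0.15 and −0.16, while a further one gave −0.50 and 1.37. For Actr3, a subunit of the actin-nucleating Arp2/3 complex, the pair differences were −2.02 and 2.49 on 1 probe set, −0.56 and 1.09 on another and 0.14 and −0.09 on the third. For Srsf3, a splicing factor gene, they were −2.01 and 2.25 on 1 probe set and, with the same signs, −0.95 and 1.07 on another. For Psmc4, an ATPase of the proteasome, they were −2.00 and 2.27 on 1 probe set and, with the same signs, −0.78 and 0.28 on the other. The stress transcription factor gene Atf4 gave −1.65 and 1.90 on 1 probe set and −0.01 and −0.52 on its brighter one. Of the 165 genes in the set, 124 had a further bright probe set outside it, and those 228 probe sets had median pair differences of −0.22 and 0.14. Probe sets marked x, which can bind related transcripts, made up 37.2% of the set and 9.24% of all brighter probe sets. Of the 207, 51 had no x, s or a suffix (24.6%, against 62.7% of all brighter probe sets). Over the brighter probe sets without such a suffix, the differences of the 2 pairs still had a Pearson correlation of −0.47.

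**Figure D4:**
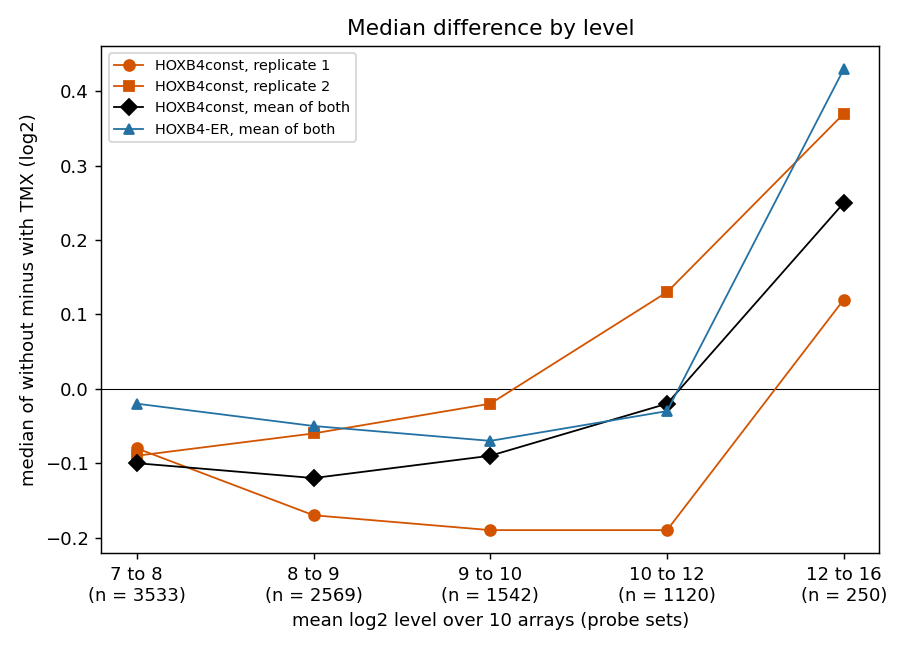
Median of without minus with TMX (log2, y axis) in bands of mean log2 level (x axis, number of probe sets in brackets), for each HOXB4const pair (orange), their mean (black) and the mean of the HOXB4-ER pairs (blue). The highest band is above 0 in every line, at 0.25 for HOXB4const and 0.43 for HOXB4-ER.

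Lists of genes with a shared role were described by their counts and medians, beside all 5886 genes, of which 33.4% were higher without TMX with a median difference of −0.09. The median of all genes moved by −0.31 when each array was centred on its overall median and by less than 0.1 under the other 2 scalings. Of the 36 lists, 635 members were bright enough, 32 lists had medians below 0 and 4 above, from −0.23 to 0.28, and 0 members passed the adjusted test. Without the 2 arrays that had the fewest values below 0, 1 array with and 1 without TMX remain, of different replicate numbers. On these, 28 of 36 list medians moved by more than the SD of the 2 pair medians, and 17 lists lay below 0, 18 above and 1 at 0 (−1.71 to 0.62, beside 0.12 for all genes), with the sign turned for 16 of 36. With pair 1 alone 13 list medians moved by that much, and with pair 2 alone 11. The lowest value on the 2 arrays left was that of monocyte and macrophage markers.

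Cytosolic ribosomal protein genes stood at the upper end. Of the 36 that were bright enough (39 measured), 30 were higher without TMX, with a median of 0.28, which became −0.02 after quantile normalization and −0.03 with arrays centred on their median. The pair medians were 0.08 and 0.41, the median was 0.47 on the 2 arrays left, and in HOXB4-ER cells it was 0.47. Rps29 read 13.43 and 13.13 with TMX and 13.47 and 14.17 without (0.53 ± 0.48), and Rpl14, named as the lowest member after its value was seen, read 8.27 and 8.82 with TMX and 7.80 and 8.47 without (−0.41 ± 0.35). The level of a gene moved with this result: of 31 ribosomal protein genes with a mean of 12 or more, the median difference was 0.30, and of the other 80 genes as bright it was 0.22. In the brightest band of 250 probe sets, 230 were higher without TMX. How far the brightness of these genes accounts for their differences was not tested.

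Genes of the proteasome, which degrades tagged proteins, leaned to the other side, with 26 of 36 lower and a median of −0.13 (−0.05 to −0.44 under the 3 other scalings, and 0.00 on the 2 arrays left). Psmd8, a subunit of its regulatory particle, read 10.39 and 9.88 with TMX and 9.81 and 9.56 without (−0.45 ± 0.35). For oxidative phosphorylation, the respiratory chain and ATP synthase, 42 of 56 were lower with a median of −0.08, which was −0.09 after quantile normalization, −0.39 with arrays centred on their median, 0.00 with arrays centred on their brighter probe sets and 0.35 on the 2 arrays left. Atp5k, an ATP synthase subunit, read 10.81 and 11.04 with TMX and 9.96 and 10.66 without (−0.62 ± 0.36), and its other 2 bright probe sets gave −0.64 and −0.24. With 66.6% of all genes lower, these shares lie close to those of the whole array.

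Growth and cycle genes gave similar medians. For mitosis and G2 genes 28 of 38 were lower (median −0.12, and 0.51 on the 2 arrays left), among them Ube2c, a ubiquitin-conjugating enzyme of mitotic exit, at 9.62 and 9.81 with TMX and 9.65 and 8.75 without (−0.51 ± 0.45). For DNA replication genes 24 of 38 were lower (median −0.04). For the MYC network and ribosome biogenesis 24 of 34 were lower (median −0.10). Myc itself, a transcription factor of growth, read 9.31 and 8.27 with TMX and 8.94 and 7.16 without (−0.74 ± 0.59, adjusted p = 1), so that the groups overlapped. Without 1 array its difference ran from −1.46 to −0.03, and in HOXB4-ER cells its pair differences were 0.42 and 0.42.

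Signalling lists that could respond to a ligand or to handling gave no called member either. Of 11 bright genes known as oestrogen receptor targets, 4 were higher and 7 lower, with a median of −0.05 (0.45 on the 2 arrays left). Tff1, the trefoil factor gene that is a classical target, read 6.79 and 7.38 with TMX and 7.37 and 7.58 without (0.39 ± 0.44). Igfbp4, which binds insulin-like growth factors, read 10.48 and 10.65 with TMX and 10.81 and 11.02 without (0.35 ± 0.36), and its other bright probe sets gave −0.13, −0.23, −0.27 and 0.23. Of 3 bright genes of the xenobiotic response 0 were higher, with Tiparp, a target of the aryl hydrocarbon receptor, at 8.47 and 7.77 with TMX and 7.92 and 7.67 without (−0.33 ± 0.34). Immediate early genes, which react within minutes to stimulation, had 3 of 10 higher and a median of −0.04. Among them Jund read 8.18 and 8.99 with TMX and 9.02 and 9.27 without (0.55 ± 0.42), and Ier2 read 8.82 and 7.57 with TMX and 8.16 and 7.44 without (−0.39 ± 0.42). Of the ERK feedback genes 11 of 12 were lower, with a median of −0.12 beside −0.09 for all genes (−0.35 on the 2 arrays left). After quantile normalization 5 of the 12 were higher, and with arrays centred on their brighter probe sets 4. The member furthest from 0 was Myc. Heat shock and chaperone genes had 11 of 17 higher, with a median of 0.06, and their member Hsp90aa1 gave pair differences of −0.90 and 1.69.

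**Figure D5:**
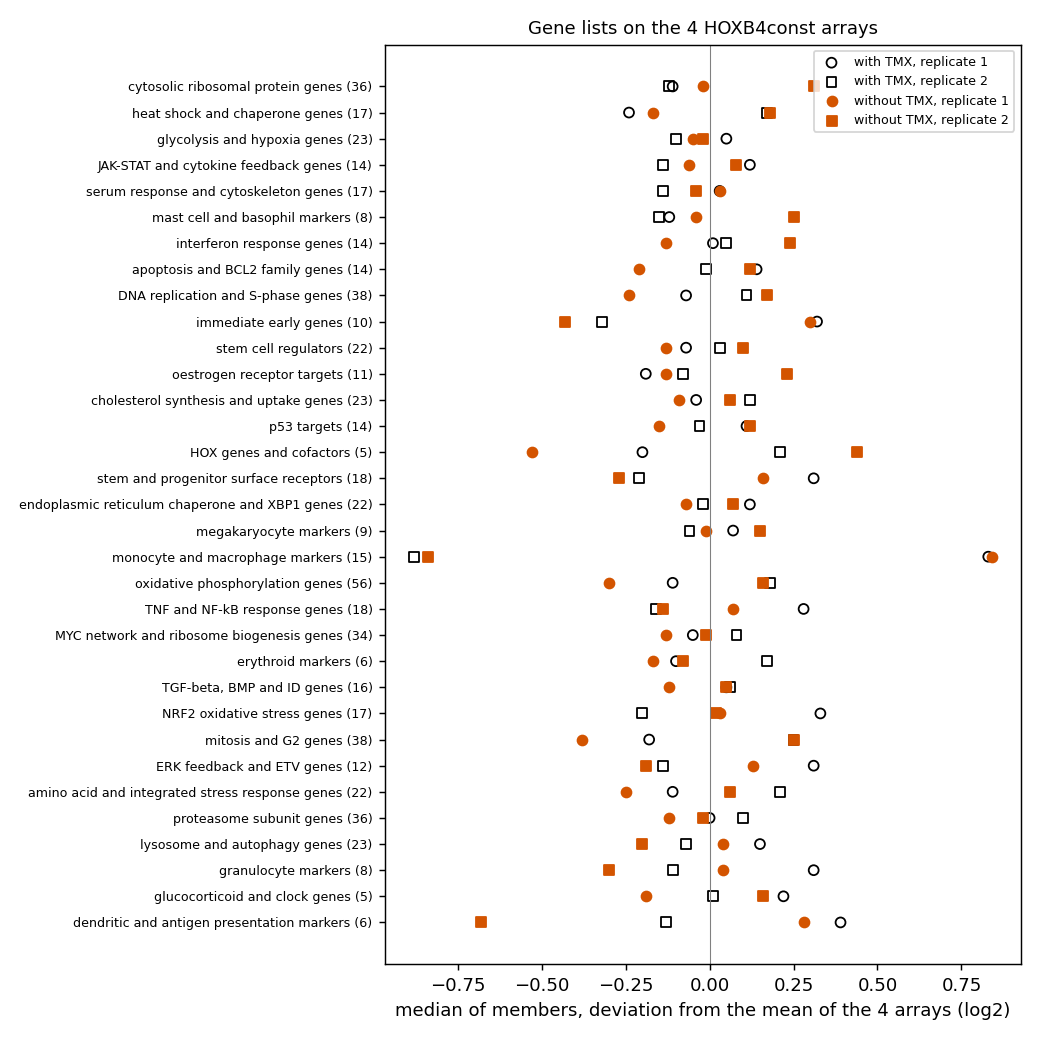
For each list with at least 5 bright members (number in brackets), the median of its members on each HOXB4const array as a deviation from the mean of the 4 arrays (log2, x axis), with TMX (open) and without (filled), replicate 1 as circles and replicate 2 as squares. Monocyte and macrophage markers split by replicate number, near 0.83 and −0.88, and not by TMX.

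The transgene, the receptor gene and the markers of the sorted cells did not pass the test, and all that were analysed had arrays that overlapped between the groups. Hoxb4 read 5.83 and 6.24 with TMX and 6.59 and 5.69 without (0.11 ± 0.49), below the brightness threshold. Whether its probe set detects the retroviral transcript is not known here. Esr1, the gene of oestrogen receptor alpha, read 6.60 and 5.93 with TMX and 6.62 and 5.12 without (−0.40 ± 0.42), also below the brightness threshold. Kit, the receptor used in the sort, read 9.76 and 9.44 with TMX and 8.72 and 10.12 without (−0.17 ± 0.50), and the progenitor marker Cd34 read 11.66 and 10.89 with TMX and 11.75 and 11.09 without (0.14 ± 0.47). Ly6a, the gene of Sca1, was not analysed here. Among genes of HOX proteins and their cofactors, 5 were bright enough. Pbx3, a cofactor that binds DNA with HOX proteins, read 7.82 and 8.93 with TMX and 7.07 and 9.34 without (−0.17 ± 0.56), and Hoxa5 read 6.77 and 7.09 with TMX and 6.78 and 7.24 without (0.09 ± 0.40).

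Markers of other cell types were present in part. Of 28 measured monocyte and macrophage markers 15 were bright enough, and their median deviated by 0.83 and −0.88 with TMX and by 0.84 and −0.84 without (replicates 1 and 2). Cd14 of this list read 9.04 and 6.68 with TMX and 8.47 and 6.57 without. Of 26 lymphoid markers 1 was bright enough, and of 26 erythroid markers 6. In such bulk samples fewer cells of a type and less RNA per cell cannot be told apart. Gapdh control probes at the 3′ end read above those at the 5′ end, a gap that grows with shorter or degraded RNA, by 0.74 and 2.93 with TMX and 1.28 and 3.98 without, higher without TMX by 0.54 and 1.05. For the actin controls the same gap differed by −0.10 and 0.82. The part of RNA quality in the differences described here was not tested.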

How the data were processed

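Labelled RNA was hybridised to Affymetrix mouse whole-genome arrays after linear amplification, per the labels' protocols. The deposited values are log2 signals, 1 per probe set and array, and were used without further scaling. GCOS and RMA are named, without their roles, in the submitters' processing notes. Each array has a 2% trimmed mean of 100 on the linear scale.

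Control probe sets (64) were left out. Of the other 45037, 34945 have 1 symbol in the platform annotation, 932 several and 9160 none listed. limma 3.58.1 in R 4.3.3 was fitted on all 10 arrays with 5 group means and the replicate number as a block (4 residual and 1.82 prior degrees of freedom), with two-sided tests and Benjamini-Hochberg adjustment, after a check on simulated data. Differences are the mean of the 2 pair differences with moderated standard errors. No count model was used, and precision is limited by the number of arrays.

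The replicate numbers were taken as pairs because the protocol splits each population between the treatments and because the replicate 2 minus replicate 1 difference of 1 group correlated with that of another above 0.10 in 10 of 10 cases (0.36 to 0.73, with a median of 0.52). The lowest value, 0.36, was that between the 2 HOXB4const groups compared here, and the 2 HOXB4-ER groups at 1 h had 0.64. Each gene was represented by its brightest probe set. The named genes are the 12 higher and 12 lower genes without overlap that had the largest smaller pair difference, the 2 members of each list with the largest difference, and Hoxb4, Esr1, Kit and progenitor markers. Members and lists were chosen with earlier results of these data known. Alternatives were no block, other scalings, a floor, other level filters, a variance trend and leaving out each array of the 1 h groups. After the data were seen, a term for the 2 arrays that stood apart and leaving out probe sets with an x, s or a suffix were added.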

Additional observations from a re-analysis of the deposited data

Results flagged for a closer look

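In 26 of the 99 named genes, both HOXB4const pairs lay on one side of 0 and both HOXB4-ER pairs on the other side. The 12 higher and 12 lower genes had been chosen with both HOXB4const pairs on 1 side of 0, which raises this count. The share over all genes was not counted. The values are the HOXB4const difference minus the HOXB4-ER difference (log2). Among the 12 higher and 12 lower genes they were Cep57l1 (1.01), Dnmt3a (0.96), Pter (1.40), Qser1 (1.22), Smpd4 (−1.35), Pigl (−1.07), Trappc6a (−1.07) and Agpat2 (−0.97). Among genes named from the lists and markers, the difference was above 0 for Jund (0.64) and Ddx58 (0.53) and below 0 for Ier2 (−0.71), Cebpg (−0.64), Gclm (−0.64), Tef (−0.60), Icam1 (−0.56), Myc (−1.16), Psmd8 (−0.72), Pola2 (−0.69), Itgb1 (−0.58), Irf9 (−0.72), Prtn3 (−0.48), Car2 (−0.65), Cd14 (−0.65), H2-DMa (−0.80), Bst2 (−0.81) and Cd27 (−0.60). Each difference was tested with limma's interaction contrast, and the adjusted p was 1 for each of them. The smallest unadjusted p was 0.0316, for Smpd4, with a standard error of 0.48. For Myc, the growth transcription factor, it was 0.212 with a standard error of 0.83. Cd27, with a mean of 6.89, lay below the brightness threshold. Groups of 2 arrays were not tested for single deviating samples.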

How the results depend on the processing

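The count of called probe sets stayed at 0 in the HOXB4const comparison without the replicate block (0, with 1956 at an unadjusted p under 0.05 against 2309 with the pairing), and the block changed no other call. It also stayed at 0 when the tests ran over brighter probe sets alone, with a variance trend, with other scalings, with a term for the 2 arrays that stood apart, and when each array of the 1 h groups was left out in turn (lowest and highest count 0, the 4 h arrays were kept). Raising values below 4 to 4 gave 43 called probe sets for HOXB4const (29 higher and 14 lower) and 15 for the difference between constructs. The highest mean among the 43 was 4.00 and a median of 8 of their 10 arrays stood at the floor, so they lie outside the brighter probe sets. The count of probe sets at least 2-fold apart in both pairs, 2 as reported, was 85 at a threshold of 0.5, 1 at a mean of 8 or more, 13 with each array centred on its median, 1 after quantile normalization and 0 without x, s or a suffixes. It needs both pairs, so no array could be left out.

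None of the 12 higher and 12 lower genes changed sign under the scalings or without any 1 HOXB4const array. They had been chosen for pair differences of 1 sign and for arrays without overlap, which favours a stable sign. Single values moved by over 1.5 times without 1 array, such as Zfas1 (−1.41 to −0.45), Polr2d (−1.13 to −0.56) and Rc3h2 (−1.06 to −0.51). Only 3 of the 24 (Deptor, Mrpl48 and Yipf5) had a further bright probe set. With the mean over a gene's probe sets all 3 moved towards 0 and kept their sign. Of the 99 named genes, 35 changed sign without some HOXB4const array. Their lowest and highest differences were Hsp90aa1 −0.50 to 1.29, Dnajb9 −1.03 to 0.21, Canx −0.06 to 0.85, Gclm −0.95 to 0.25, Tff1 −0.03 to 0.82, Fdps −0.83 to 0.33, Ctsz −1.12 to 0.25, Nr1d2 −0.73 to 0.25, Nfkbie −1.78 to 0.66, Icam1 −0.94 to 0.08, Spred1 −0.90 to 0.25, Mdm2 −0.08 to 1.05, Ccne2 −1.30 to 0.53, Pola2 −0.93 to 0.20, Pbx3 −0.95 to 0.61, Hoxa5 −0.07 to 0.24, Irf9 −0.79 to 0.06, Bmp2k −0.88 to 0.07, Smad2 −0.62 to 0.04, Igsf6 −1.22 to 0.46, Zfpm1 −0.11 to 1.03, Car2 −0.76 to 0.16, Pf4 −0.51 to 0.98, Mpeg1 −1.39 to 0.65, Cd14 −0.75 to 0.06, Nkg7 −1.14 to 1.03, Pdgfrb −1.16 to 0.13, Pecam1 −1.35 to 0.52, Hoxb4 −0.48 to 0.69, Esr1 −0.86 to 0.07, Kit −0.86 to 0.52, Cd34 −0.17 to 0.45, Flt3 −0.41 to 0.55, Gata2 −0.20 to 0.10, Cd48 −0.29 to 0.02. With each array centred on its median, the sign turned for Hoxa5 (−0.22), Pf4 (−0.08), Hoxb4 (−0.20), Cd34 (−0.17), Flt3 (−0.24), Myb (−0.20). It turned after quantile normalization for Fth1 (−0.02), Nkg7 (0.05), Gata2 (0.01), and with the mean over a gene's probe sets for Igfbp4 (−0.01), Gata2 (0.01), Myb (−0.05). The cause was not tested.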

Other observations

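Genes of mitochondrial ribosomal proteins, which build the ribosome that translates the mitochondrial genome, were set apart as a list after 2 of them, Mrpl22 and Mrpl48, had been seen among the 12 lower genes, so the list is a description. Of 73 such genes with a mean of 7 or more, 61 were lower without TMX in HOXB4const cells, 40 in both pairs, and 20 lay lower on both arrays without overlap, against 2 that lay higher. Over all genes 66.6% were lower, 28.7% in both pairs, and 11.1% lay lower and 3.62% higher without overlap. The share changed with level. At a mean of 7 to 8, 1230 of 3533 probe sets were higher without TMX, and at 8 to 9, 719 of 2569. At 9 to 10 it was 443 of 1542, and at 10 to 12, 521 of 1120. The list was not set against genes of like level. The count of higher members, 12 here, was 21 after quantile normalization and 22 with arrays centred on their brighter probe sets. The median difference was −0.21 (−0.18 and −0.26 in the pairs), beside −0.09 for all 5886 genes, and −0.03 in HOXB4-ER cells. It was −0.13 after quantile normalization, −0.13 with arrays centred on their brighter probe sets and −0.52 with arrays centred on their median.

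Mrps28, a protein of the small subunit, read 8.85 and 9.03 with TMX and 8.24 and 8.43 without (−0.61 ± 0.42, limma adjusted p = 1). Mrps34 of the same subunit read 9.05 and 8.84 with TMX and 8.59 and 8.24 without (−0.53 ± 0.38, adjusted p = 1). Mrpl28 of the large subunit read 8.43 and 8.55 with TMX and 7.79 and 8.11 without (−0.55 ± 0.36, adjusted p = 1). All 3 were named after their values were seen, as members whose groups did not overlap. Their mean differences in HOXB4-ER cells were −0.05, 0.13 and 0.05.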
